A study of Mus musculus with 2 samples.

Results

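The desmosome components examined here were 10 genes, taken from the deposited table by gene name: Dsg2, Dsg3, Dsc2, Dsc3, Dsp, Pkp1, Pkp2, Pkp3, Jup and Perp. All 10 had a row among 20647 genes, and all 10 passed a filter on low values, a mean of the 2 libraries of at least 50 normalized counts, which 11279 genes passed. The study sequenced RNA from 1 library of cystic and 1 library of dense organoids grown from mouse pituitary, the gland that secretes growth hormone, prolactin and other trophic hormones. Organoids are self-organising cell clusters kept in culture. Cystic organoids were taken at passage 2 and came from a mouse of genotype GHCre/iDTR, whereas dense organoids were taken at passage 4 and came from a -/iDTR mouse. Both mice were males aged 10 weeks, both carried iDTR, an allele that expresses the diphtheria toxin receptor after Cre recombination, and both cultures were kept in PitOM medium. GHCre is a Cre recombinase driven by the growth hormone promoter, carried by the mouse of the cystic culture and not by that of the dense one. The labels do not say whether toxin was given. Organoid type, mouse, genotype and passage cannot be told apart in this design, and with 1 library per group no test between conditions was possible.

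Desmosomes are adhesive junctions that tie the keratin filaments of neighbouring epithelial cells together. Their cadherins, the desmogleins and desmocollins, bind across the intercellular space, the armadillo proteins plakoglobin and plakophilin sit under the membrane, and desmoplakin connects this plaque to intermediate filaments. Most parts exist as paralogs whose use differs between tissues: Dsg2, Dsc2 and Pkp2 are the forms of simple epithelia, while Dsg3, Dsc3 and Pkp1 are typical of stratified epithelia such as epidermis and oral mucosa. Pkp3 (ENSMUSG00000054065), grouped here with the stratified forms, also occurs in many simple epithelia, and Dsc2 occurs in stratified epithelia too.

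The cystic library held 17247431 reads in genes and the dense library 19258313, and values are the deposited normalized counts, each a read count divided by a library size factor. Both libraries held the epithelial genes Epcam (28114 cystic, 10446 dense) and Cdh1. Of 6 epithelial markers, 3 were past 4-fold higher in cystic organoids and 0 lower. Both held the pituitary factors Pitx1 (1276 cystic, 5614 dense) and Sox2 (2790 cystic, 3885 dense), while Lhx3 had 164 reads in the cystic library and none in the dense library. Of 8 pituitary markers, 7 had a row, 4 of them past 4-fold higher in cystic organoids and 1, Pitx1, lower. The 4 included Gh (1603 cystic, 276 dense), Prl (1192 cystic, 251 dense) and Pomc (1021 cystic, 146 dense). The other was Lhx3, which passed the filter through its cystic value alone, so its call was fixed by the filter. Among all genes past the filter 7.86% were higher and 7.65% lower by this measure. The basal keratins and Trp63, 3 markers of stratified epithelium, summed to 98.3 normalized counts in cystic against 331217 in dense organoids. The 6 mesenchymal markers summed to 111 in cystic against 2.87 in dense organoids, with 0 of them at no read in cystic and 3 in dense organoids. Col3a1 (70.1) and Vim (26.2) had the largest cystic values of the 6, and 0 of the 6 passed the filter. Of 4 heart muscle markers, another tissue rich in desmosomes, 3 had a row and summed to 30.3 in cystic against 51.6 in dense organoids, where Actn2 gave 28 reads in cystic against 1 in dense organoids, Tnnt2 1 in cystic against 47 in dense, and Myh7 0 in cystic against 6 in dense. Of 4 endothelial markers, 2 had a row, with sums of 23.0 in cystic against 4.78 in dense organoids. Immune markers, 3 of 4 with a row, summed to 422 in cystic against 3123 in dense organoids, a direction set by the lysosomal gene Cd68 (373 cystic, 3123 dense), while Aif1 had 45 reads in cystic organoids and Ptprc 1, with none of either in dense organoids.

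Desmosome genes were far lower in cystic than in dense organoids, with Pkp2 and Dsg2 as the exceptions. A gene was called past 4-fold, meaning that its log2 ratio of cystic over dense reached 2 or -2 after adding 1 normalized count to each value. By this rule 8 of 10 members were lower in cystic organoids, where 7.65% of all genes past the filter were, and 1, Pkp2, was higher, against 7.86% of all genes. The 8 include Dsc3, which passed the filter through its dense value alone, so its call was fixed by the filter. The median log2 ratio over the 10 members was -4.06, and over all genes past the filter it was -0.033. Together the members took 0.127% of the reads in genes of the cystic library (95% Clopper-Pearson interval 0.126% to 0.129%) and 2.04% (2.04% to 2.05%) of those in the dense library. All intervals here describe counting error and leave out the variation among cultures and mice. In bulk RNA, fewer cells of a type and less RNA per cell cannot be told apart. The part that the stratified epithelial markers, which differ in the same direction, play in these differences was not tested.

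**Figure D1:**
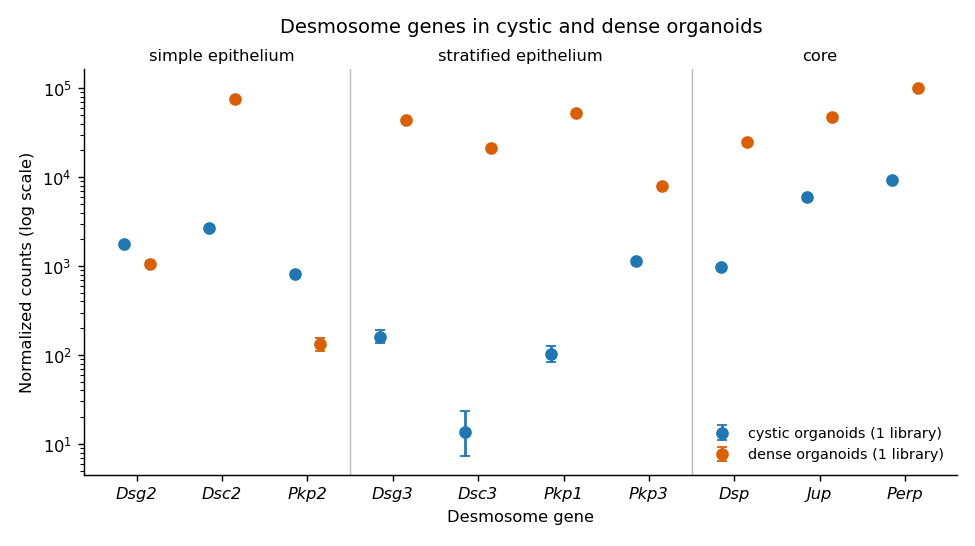
Normalized counts (log axis) of the 10 desmosome genes, with cystic organoids on the left and dense organoids on the right of each pair. Points are the 1 library of each kind and bars the 95% Poisson counting interval; Dsc3 spans the widest gap (13.6 in cystic, 21241 in dense), and Dsg2 and Pkp2 lie higher in the cystic library.

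Desmoglein genes differed by isoform, with Dsg3 lower in cystic organoids and Dsg2 within 4-fold. Dsg3 (ENSMUSG00000056632), the desmoglein of basal and lower layers of stratified epithelium and the antigen of pemphigus vulgaris in humans, had 161 normalized counts in cystic against 43620.2 in dense organoids, so it was 271-fold lower in cystic organoids (95% Clopper-Pearson counting interval 231 to 319). Dsg2 (ENSMUSG00000044393), the desmoglein of simple epithelium and heart, had 1792 in cystic against 1069.6 in dense organoids. That is a ratio of 1.68 (1.55 to 1.81), beyond counting error but under the 4-fold call. Its log2 ratio was the nearest to 0 of the 10 members.

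Desmocollin genes were both lower in cystic organoids, the form of simple epithelium included. Dsc2 (ENSMUSG00000024331), the most widely distributed desmocollin, had 2711 in cystic against 75899.9 in dense organoids, 28.0-fold lower (26.9 to 29.1) in cystic organoids. Dsc3 (ENSMUSG00000059898), a desmocollin of the basal layers of stratified epithelium, had 13 reads in the cystic library, or 13.6 normalized counts (exact Poisson interval 7.24 to 23.3), against 21241 in the dense library. It was 1562-fold lower in cystic organoids (913 to 2934), the lowest ratio of the 10 genes except with a pseudocount of 50, where Pkp1 was lower. Only 0.390% of genes past the filter had a lower ratio than Dsc3. The 4-fold call of Dsc3 was fixed by the filter, which it passed through its dense value alone.

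Plakophilin genes split in both directions. Pkp1 (ENSMUSG00000026413), the plakophilin that strengthens desmosomes of suprabasal keratinocytes, had 103 in cystic against 52289.9 in dense organoids (510.02-fold lower in cystic organoids, 418 to 628). Pkp3, found in most epithelia, had 1132 in cystic against 7933 in dense organoids, which is 7.01-fold lower (6.58 to 7.47). Pkp2 (ENSMUSG00000041957), the plakophilin of simple epithelium and of the heart, had 807 in cystic against 133 in dense organoids, 6.07-fold higher in cystic organoids (5.06 to 7.33). It was the member with the highest ratio, and 93.9% of all genes past the filter lay below it.

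Dsp and Jup, which desmosomes of most epithelia share, and Perp, grouped with them here as core components, were all lower in cystic organoids. Dsp (ENSMUSG00000054889), desmoplakin, which anchors keratin filaments, had 965 in cystic against 24669 in dense organoids (25.6-fold lower in cystic organoids, 23.9 to 27.3). Jup (ENSMUSG00000001552), plakoglobin, an armadillo protein of both desmosomes and adherens junctions, had 6031 in cystic against 48024 in dense organoids, 7.96-fold lower (7.75 to 8.18). Perp (ENSMUSG00000019851), a tetraspan membrane protein and p53 family target that desmosomes of stratified epithelium need for assembly in mice, had 9241 in cystic against 101016 in dense organoids (10.9-fold lower, 10.7 to 11.2). All 3 were still well covered in the cystic library, with 922 reads for Dsp, 5765 for Jup and 8833 for Perp.

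Jup and Dsp are the 2 members of 10 with a promoter window in the RefSeq sequences used here, and they are shown as core genes lower in cystic organoids. Each run is the 250 bases before the annotated start on GRCm38.p6, for Jup chr11:100397791-100398040 on the minus strand and for Dsp chr13:38151044-38151293 on the plus strand, with capitals marking GGGCGG or its reverse complement, the GC box of SP and KLF factors.
Jup: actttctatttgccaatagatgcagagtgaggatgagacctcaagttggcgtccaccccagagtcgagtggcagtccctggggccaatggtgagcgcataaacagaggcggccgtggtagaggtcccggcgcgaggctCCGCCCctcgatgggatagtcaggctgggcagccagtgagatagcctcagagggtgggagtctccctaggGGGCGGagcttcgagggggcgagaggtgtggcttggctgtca
Dsp: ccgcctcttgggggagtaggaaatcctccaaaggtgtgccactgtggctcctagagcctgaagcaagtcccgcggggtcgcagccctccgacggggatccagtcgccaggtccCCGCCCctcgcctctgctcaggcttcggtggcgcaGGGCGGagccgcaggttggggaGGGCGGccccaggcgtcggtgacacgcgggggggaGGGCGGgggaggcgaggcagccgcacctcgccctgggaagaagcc
Neither window held AACCGGTT (Grainyhead-like factors), TGANTCA (AP-1) or CACCTG (SNAI and ZEB factors) on either strand. Over all 32851 windows of this length, 0.116%, 6.75% and 17.2% hold these letters. The GC box, searched after those 3 gave no match, occurred 2 times before Jup, starting 112 and 42 bases upstream, and 4 times before Dsp, from 137 to 45 bases upstream, and 32.7% of all windows hold it. Matches are a description of letters and not evidence of binding. The build of these sequences is not the mm9 build named for the deposited values, so they serve for sequence only.

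**Figure D2:**
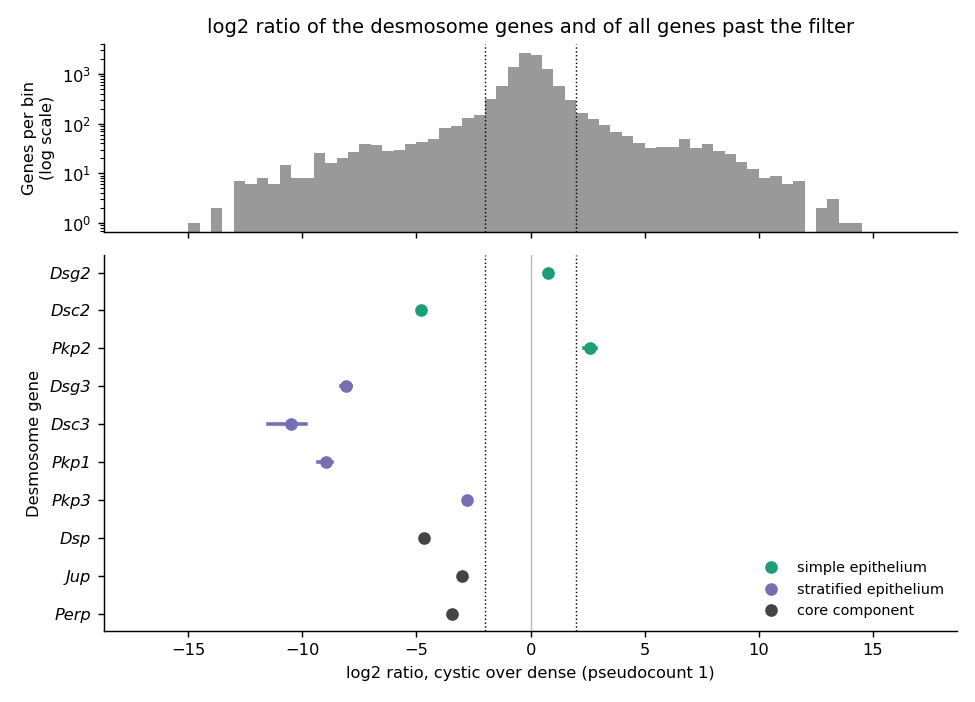
Lower panel: log2 ratio of cystic over dense organoids for each desmosome gene (points, pseudocount 1; bars, 95% counting interval of the fold), coloured by class. Upper panel: number of genes per bin of 0.5 (log axis) over all 11279 genes past the filter; dotted lines mark 4-fold, and 8 members lie left of them and Pkp2 right of them.

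The isoforms of simple epithelium stood apart from those of stratified epithelium, except for Dsc2. The 3 simple forms had log2 ratios of 0.74 (Dsg2), -4.81 (Dsc2) and 2.59 (Pkp2), a median of 0.74. All 4 stratified forms were lower in cystic organoids, with log2 ratios of -8.07 (Dsg3), -10.51 (Dsc3), -8.98 (Pkp1) and -2.81 (Pkp3) and a median of -8.53. The difference of the medians, simple minus stratified, was 9.27 on the log2 scale. The classes overlapped, since Dsc2 of the simple class was lower in ratio than Pkp3 of the stratified class.

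Within each family the ratio of the simple form to its stratified paralog was higher in cystic than in dense organoids. Levels of different genes are compared here as normalized counts per kilobase of exon, over the union of all annotated exons. This corrects for length only approximately, since the transcripts present may be shorter than that union. Dsg2 stood at 9.39 times the level of Dsg3 in cystic organoids (7.96 to 11.1) and at 0.0207 times that level in dense organoids (0.0195 to 0.0220). The ratio of these ratios, in which length cancels, was 454 (95% log-normal counting interval 381 to 540). For Dsc2 over Dsc3 the level ratio was 204 in cystic (119 to 384) and 3.66 in dense organoids (3.60 to 3.71), so Dsc2 remained the more abundant desmocollin in both libraries. The ratio of ratios was 55.8 (32.3 to 96.2). Pkp2 over Pkp1 gave 7.37 in cystic (5.97 to 9.19) and 0.00238 in dense organoids (0.00200 to 0.00281), a ratio of ratios of 3096 (2368 to 4048), the highest of the 4 pairs. Pkp2 over Pkp3 gave 0.481 in cystic (0.438 to 0.528) and 0.0113 in dense organoids (0.00949 to 0.0134), so Pkp3 outweighed Pkp2 in both. The ratio of ratios for this pair was 42.5 (35.1 to 51.5), the lowest of the 4 pairs.

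Dsg2 made up 90.3% of the desmoglein level in cystic organoids, per kilobase of exon, and 1.58% in dense organoids, where Dsg3 held 76.5% and Dsg1b 21.6%. Dsc2 made up 99.5% of the desmocollin level in cystic and 78.5% in dense organoids, with Dsc3 at 0.488% in cystic and 21.4% in dense organoids. Among plakophilins, Pkp3 took 64.7%, Pkp2 31.1% and Pkp1 4.22% in cystic organoids. Pkp1 took 82.4%, Pkp3 17.4% and Pkp2 0.196% in dense organoids. The leading desmoglein and plakophilin thus differed between the libraries and the leading desmocollin did not. With coding length in place of exon length the leading form of each family was the same in each library, while Pkp2 took 40.1% in cystic organoids and Dsg1b 12.8% in dense organoids.

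**Figure D3:**
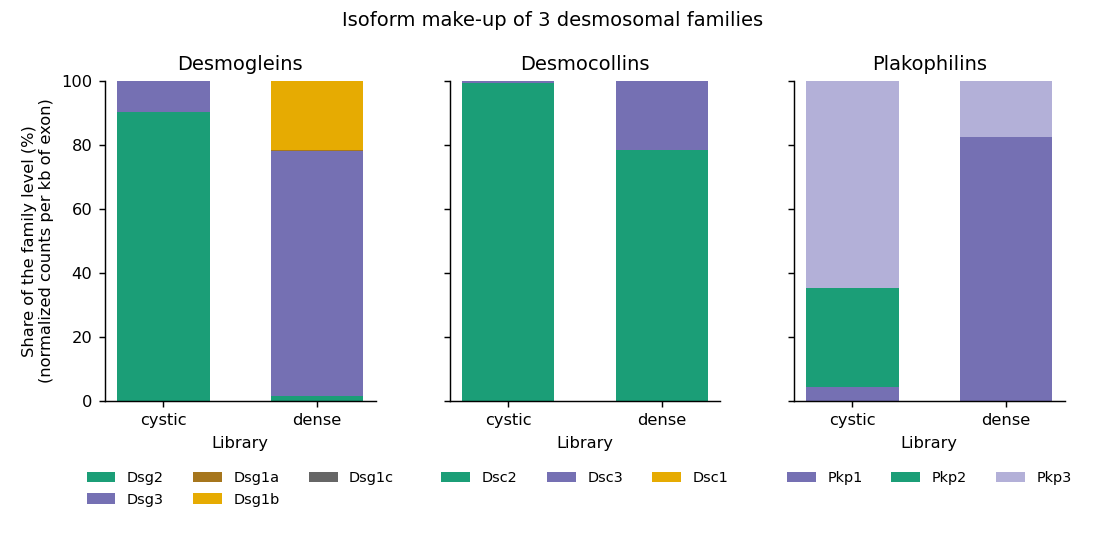
Share (%) of each isoform in the summed level of its family, in normalized counts per kilobase of exon, for the cystic (left) and the dense (right) library. Dsg2 holds 90.3% of the desmogleins in cystic and 1.58% in dense organoids, Dsc2 leads the desmocollins in both, and Pkp1 holds 4.22% of the plakophilins in cystic and 82.4% in dense organoids.

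In order of level per kilobase, Perp stood first in both libraries, at 4734 normalized counts per kilobase in cystic against 51750.2 in dense organoids. In cystic organoids Jup (937), Dsc2 (514), Pkp3 (313), Dsg2 (217), Pkp2 (150.5), Dsp (99.9), Dsg3 (23.1), Pkp1 (20.4) and Dsc3 (2.52) followed. Of these neighbours only Dsg3 and Pkp1 had overlapping counting intervals (19.6 to 27.0 and 16.6 to 24.9). The order in dense organoids after Perp was Dsc2 (14383), Pkp1 (10408), Jup (7462), Dsg3 (6251), Dsc3 (3931), Dsp (2554), Pkp3 (2194), Dsg2 (129) and Pkp2 (24.8), with no overlap between neighbours. Pkp1 was thus 9th of 10 in cystic and 3rd in dense organoids, and Pkp2 was 6th in cystic and 10th in dense organoids. With coding length Dsg2 (532) stood above Pkp3 (459) in cystic organoids, and Pkp3 (3217) above Dsp (2852) in dense organoids. The counting intervals leave out this dependence on the length used.

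The further desmosomal cadherins of differentiated epidermis were nearly without reads in cystic organoids. Of 6 other desmosome genes, 5 had a row and 3 passed the filter, 2 of them lower in cystic organoids and 0 higher, beside 7.65% and 7.86% of all genes. Dsg1b, a desmoglein 1 gene of upper epidermal layers, had a single read in cystic organoids, or 1.05 normalized counts, and 6991 normalized counts in dense organoids (6683-fold lower, 1199 to 263989). Dsg1a had no read in cystic and 115 normalized counts in dense organoids, at least 36.5-fold lower against a floor of 3 reads, and Dsg1c had no read in cystic and 12.4 in dense organoids. Dsg1b and Dsg1a passed the filter through their dense values alone, so their calls were fixed by the filter. The 3 desmoglein 1 genes are close copies and reads may be split among them. Summed, they held 1 read in cystic and 7447 reads in dense organoids. Dsc1, the desmocollin of the upper epidermis, had no read in cystic and 76.5 normalized counts in dense organoids, with a mean under the filter. Pkp4, a plakophilin relative found at adherens junctions as well, had 486 in cystic against 179.7 in dense organoids, a ratio of 2.71 (2.28 to 3.22) under the 4-fold call. Dsg4 was not analysed here.

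The desmosomal cadherin genes lie side by side in a single cluster, so their ratios could be read along the chromosome. In the RefSeq order on GRCm38.p6 the run is Dsc3, Dsc2, Dsc1, Dsg1c, Dsg1a, Dsg1b, Dsg4, Dsg3 and Dsg2. From Dsc3 to Dsg3 each of the 7 analysed genes had a negative log2 ratio, between -11.74 at Dsg1b and -3.75 at Dsg1c (a mean under the filter, and at least 3.96-fold lower against a floor of 3 reads), whereas Dsg2 at the end of the cluster had 0.74. Of the 7, Dsc1, Dsg1c and Dsg1a had no read in cystic organoids and Dsg1b had 1. The 3 analysed flanking genes had positive log2 ratios, which for genes with no read depend on the pseudocount and are no bounds. Among all 11279 genes past the filter, 5845 had a negative and 5434 a positive log2 ratio. Cdh2, the N-cadherin gene next to Dsc3, had 263 normalized counts in cystic organoids, where dense organoids had no read, at least 91.6-fold higher in cystic organoids. Beyond it, Chst9, with a mean under the filter, had 35.6 in cystic organoids, where dense organoids had no read. The gene directly next to Dsg2 was not analysed here, and the one beyond it, B4galt6, a glycosyltransferase gene, had 239 in cystic against 50.7 in dense organoids, a log2 ratio of 2.21. The flanking genes were chosen by position after the members' values were known.

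**Figure D4:**
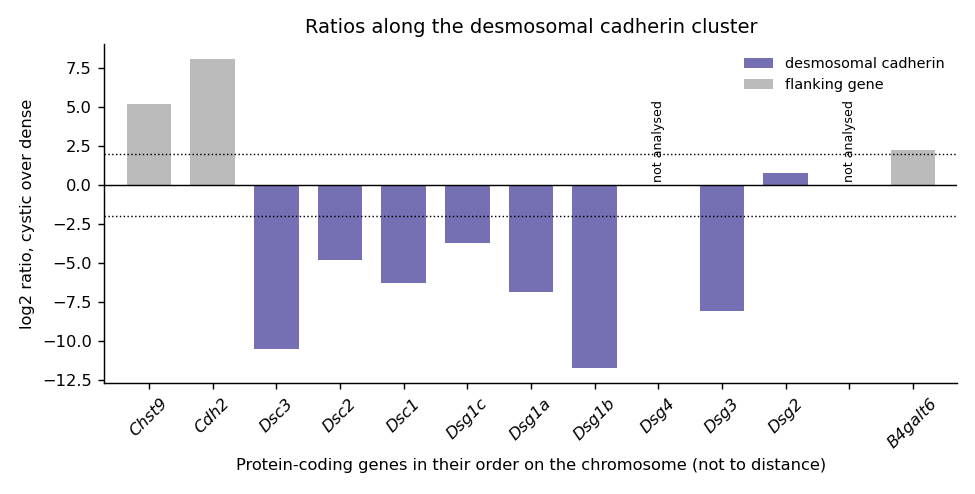
Log2 ratio of cystic over dense organoids for the protein-coding genes along the desmosomal cadherin cluster, in chromosome order and not to distance; bars of genes with no read in a library depend on the pseudocount of 1. The bars from Dsc3 to Dsg3 point down (to -11.74 at Dsg1b), Dsg2 stands at 0.74 and the analysed flanking genes point up (8.04 at Cdh2); dotted lines mark 4-fold.

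Genes of the adherens junction, the other cadherin and catenin junction of epithelia, differed in both directions. Of 11 genes, all past the filter, 3 were lower and 1 higher in cystic organoids, beside 7.65% lower and 7.86% higher among all genes, and 7 were within 4-fold. The median log2 ratio was -0.12. Cdh1, the E-cadherin gene, had 21553 in cystic against 21079.8 in dense organoids, and Ctnnb1, beta-catenin, had 11799 in cystic against 11685 in dense organoids. The ratio of Ctnnb1 was 1.01 (0.984 to 1.04), within counting error of equal. Cdh3, P-cadherin of basal epithelial layers, was 71.1-fold lower in cystic organoids (54.1 to 95.3), Nectin1 11.4-fold lower (8.90 to 14.8) and Nectin4 5.63-fold lower (5.30 to 5.998), and Cdh2 was the gene called higher. With no read in dense organoids, Cdh2 passed the filter through its cystic value alone, so its call was fixed by the filter.

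Set against E-cadherin, the desmosomal share of the cadherin level differed widely. The 8 analysed desmosomal cadherins summed to 756 normalized counts per kilobase in cystic against 26497 in dense organoids, while Cdh1 stood at 4712 in cystic against 4609 in dense organoids. The sum was 0.160 times Cdh1 in cystic and 5.75 times Cdh1 in dense organoids (0.196 in cystic and 6.69 in dense organoids with coding length). Jup stood at 0.412 times its armadillo relative Ctnnb1 in cystic organoids (0.399 to 0.426) and at 3.32 times Ctnnb1 in dense organoids (3.25 to 3.38). Plakoglobin was thus the less abundant of these armadillo transcripts in cystic organoids and the more abundant in dense organoids.

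Among the plakins, the family of desmoplakin, 4 of 6 genes were lower and 0 higher in cystic organoids, beside 7.65% and 7.86% of all genes, and the median log2 ratio was -3.53. Besides Dsp, these were Evpl (735 cystic, 17763 dense) and Ppl (5714 cystic, 33677 dense), which encode envoplakin and periplakin of the cornified envelope, and Dst, dystonin, with 195 in cystic against 4417 in dense organoids. Evpl was 24.2-fold lower in cystic organoids (22.4 to 26.1) and Dst 22.7-fold lower (19.6 to 26.4), close to the 25.6-fold of Dsp. Plec, plectin, had 4282 in cystic against 7699.5 in dense organoids, and Macf1, a cytoskeletal crosslinker, had 3177 in cystic against 2792 in dense organoids, neither past 4-fold. Both were chosen after their values were seen.

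Keratins, the filaments that desmosomes hold, divided by class. All 4 simple keratins were higher in cystic organoids, from 39.2-fold at Krt18 (36.7 to 41.9) to 232-fold at Krt8 (187 to 291). Of 6 stratified keratins, 5 passed the filter and 4 were lower in cystic organoids, from 241-fold at Krt6a (218 to 267) to 8371-fold at Krt14 (5420 to 13705). Krt5 had 16.7 in cystic against 139723 in dense organoids, and Krt16 had 8.37 in cystic against 49131 in dense organoids. Krt5 and Krt16 passed the filter through their dense values alone, so their calls were fixed by the filter. These called counts stand beside 7.86% higher and 7.65% lower among all genes. Krt18 and Krt8 are named as the ends of the range of simple keratins, with their values known. Krt10, a keratin of differentiating epidermis chosen after its values were seen, had 105 in cystic against 162.5 in dense organoids, under the 4-fold call. Reads of Krt6a, Krt14 and Krt16 may be shared with close paralogs.

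Regulators and enzymes linked to desmosomes differed in both directions. Of 13 genes, all past the filter, 4 were lower and 1 higher in cystic organoids, beside 7.65% lower and 7.86% higher among all genes, and 8 were within 4-fold. The median log2 ratio was -1.002. Trp63, encoding the p63 factor that drives stratified epithelium and activates Perp in mice, had 60.7 in cystic against 16344 in dense organoids (269-fold lower, 208 to 355). Grhl3, a Grainyhead-like factor of surface epithelium, was 31.4-fold lower in cystic organoids (26.1 to 38.1), and Cdsn, corneodesmosin of the modified desmosomes of cornified cells, was 8403-fold lower (2326 to 69393) on 2 reads in cystic organoids. Tmem47, a relative of Perp, differed the other way, with 414 in cystic organoids, where dense organoids had no read, at least 144-fold higher. The call of Tmem47 was fixed by the filter, which it passed through its cystic value alone. The call of Cdsn was fixed likewise, through its dense value alone. Zdhhc5, a palmitoyltransferase, had 4663 in cystic against 12164 in dense organoids. Adam10, a protease that sheds desmoglein ectodomains, had 3726 in cystic against 3428 in dense organoids. Its relative Adam17 had 2985 in cystic against 3886 in dense organoids, and both are named with their values known.

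**Figure D5:**
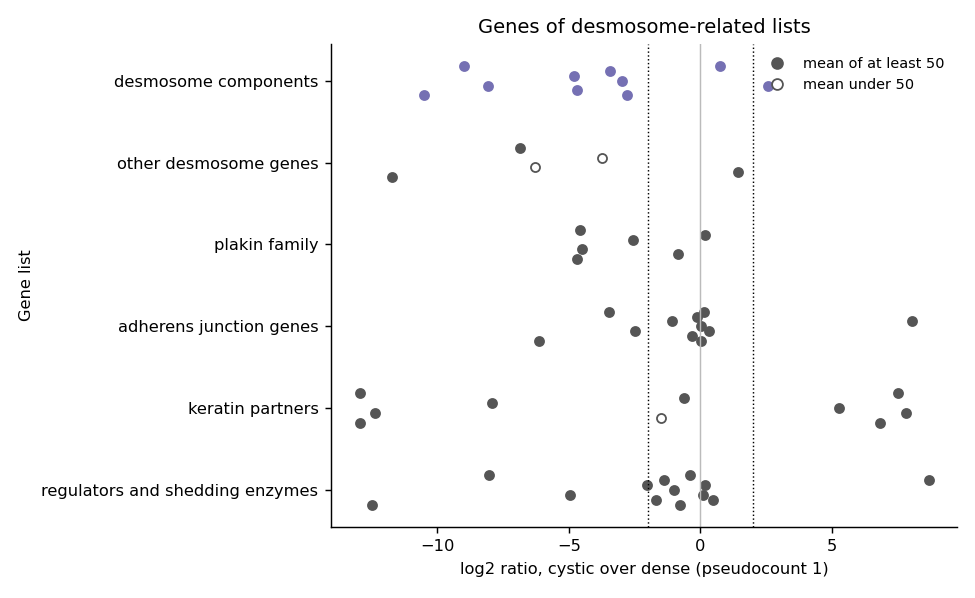
Log2 ratio of cystic over dense organoids for each gene with a row in 6 lists, with open points for genes whose mean is under 50 normalized counts; vertical scatter within a list only separates points. Of the 10 desmosome components 8 lie left of the dotted 4-fold line, while 7 of 11 adherens junction genes lie between the lines.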

How the data were processed

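RNA was amplified with Smart-seq v4, a full-length amplification with no molecular identifiers here, per the labels' protocols. The authors deposited a normalized read signal per gene and library. TopHat, DESeq 1.32.0 and mm9 are named in the submitters' processing notes, with no role. The read counter, the annotation and the strand setting are each not given in the sources used here. Both columns held whole multiples of their smallest value above 0 (100% of values within 0.001 read), so reads were recovered; 1 read is worth 1.05 normalized counts in cystic organoids and 0.956 in dense organoids. Both ERCC spike-in rows (0 reads cystic, 2 reads dense) were dropped.

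Log2 ratios used a pseudocount of 1, a mean of at least 50 and a 4-fold call. A gene with few or no reads in 1 library can pass this filter only through the other library, which fixes its call. For fold bounds a count of 0 was put at 3 reads; log2 ratios of such genes use the pseudocount alone. The floor is 3.14 normalized counts for cystic and 2.87 for dense organoids. Intervals are at 95%, exact for values and folds. Exon lengths came from GENCODE M21 (GRCm38), which held 99.7% of the gene identifiers. Named genes are all members, the other desmosome genes, and from each further list the 4 widest ratios and the 2 highest means; exceptions are stated, and some genes counted in these lists are not reported here by name. Members and lists were chosen with earlier results of these data known. Alternatives used other pseudocounts, filters, thresholds, scalings (edgeR 4.0.16 in R 4.3.3) and lengths.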

Additional observations from a re-analysis of the deposited data

How the results depend on the processing

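No paired analysis was possible because each group has 1 library, and leaving out a replicate was not possible either. Each of the 10 members kept the sign of its log2 ratio under 3 other pseudocounts and 3 other scalings. Over these settings Dsg2 ranged from 0.72 to 0.77, Pkp2 from 2.23 to 2.62 and Dsc3 from -10.56 to -8.39; with a pseudocount of 50 Pkp1, at -8.42, lay below Dsc3. The count of members lower in cystic organoids was 8 in the main setting and 6 with an 8-fold threshold (5.18% of all genes), where no member was called higher (5.32% of all genes). The mean in place of the median gave -4.30 over the members and 7.10 for simple minus stratified isoforms, which was 8.76 with a pseudocount of 50 and 9.72 without Pkp3. Of the other desmosome genes, 1 was higher at a 2-fold threshold (15.7% of all genes), and the number lower was 1 with a pseudocount of 50 or a mean of at least 200, and 4 once a mean of at least 1 sufficed (5.89%, 6.55% and 10.4% of all genes). At 200, 0 adherens junction genes were higher (6.06%), and at 2-fold 7 regulators were lower (15.6%). Coding length, chosen after seeing the data as were the settings for these further lists, kept 44 of 45 member pairs in order in each library. Low counts in cystic organoids limit Dsc3 (13 reads), Cdsn (2 reads) and Dsg1b (1 read). They also limit the keratins Krt16 (8 reads), Krt5 (16 reads) and Krt14 (20 reads).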

Other observations

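Per kilobase of exon, plakophilins and desmoplakin differed by a like factor, a pattern noticed after the values were seen. The summed level of Pkp1, Pkp2 and Pkp3 was 484 normalized counts per kilobase of exon in cystic and 12627 in dense organoids, and it stood at 4.85 times Dsp in cystic and 4.94 times Dsp in dense organoids. With coding length the same ratios were 7.57 in cystic and 9.54 in dense organoids. The summed desmosomal cadherins stood at 7.57 times Dsp in cystic and 10.4 times Dsp in dense organoids, per kilobase of exon. With coding length they stood at 14.3 times Dsp in cystic and 18.6 times Dsp in dense organoids. By coding length the plakophilins thus did not stay closer to a fixed multiple of Dsp than the cadherins by any wide margin. Jup and Perp ran otherwise, with Jup at 9.38 times Dsp in cystic and 2.92 times Dsp in dense organoids, and Perp at 47.4 times Dsp in cystic and 20.3 times Dsp in dense organoids.

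Antisense genes of the annotation overlapped exons of 2 members. Gm16090 overlaps 330 of 8268 exon bases of Dsg2 and had 0 reads in cystic and 2 reads in dense organoids. Gm10129 overlaps 499 of 9659 exon bases of Dsp and had 2 reads in each library.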
